A study of Mus musculus with 88 samples.

Results

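Mtf2 null cells were compared with wild-type (WT) cells after 24 h of directed differentiation toward endoderm, by bulk RNA sequencing of 2 libraries per genotype. These 4 libraries were taken by the genotype and time in their labels from the 24 libraries of the endoderm series, in a study of 88 samples. All cells were mouse embryonic stem cells (ESCs) kept in serum with LIF, and the labels give E14 as the strain of every library. WT and Mtf2 null monolayers both received activin A, the Wnt agonist CHIR99021 and FGF2 for 24 h, the medium for anterior primitive streak, before a later change to activin A with the BMP receptor inhibitor DM3189. The same series holds cells labelled Jarid2 null and, for each genotype, undifferentiated cells and cells at 5 h and 48 h, again with 2 libraries each. A separate mesoderm series had BMP4 added to the induction medium. The Mtf2 null line is homozygous for a gene-trap allele, and the study names another WT line, Pcl1-3, as the match for its background, so that differences between the E14 and Mtf2 null libraries due to genotype and those due to the origin of the lines cannot be told apart. Duplicates were described as technical, and p-values therefore measure only the spread between these libraries.

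Polycomb Repressive Complex 2 (PRC2) trimethylates lysine 27 of histone H3 and keeps developmental genes silent in ESCs. MTF2 is an accessory subunit that marks the PRC2.1 form and binds CG-containing DNA, whereas JARID2 belongs to PRC2.2. During gastrulation, Nodal (mimicked by activin) and Wnt signals induce the primitive streak, where cells switch on the T-box factor gene T (Brachyury) and Eomes for a short time before they become mesoderm or definitive endoderm. Definitive endoderm uses transcription factors such as SOX17, GATA6 and FOXA2, which extraembryonic primitive and visceral endoderm also express.

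At 24 h, the Mtf2 null cells had far less T and Otx2 than WT cells, a lower Lefty2 level, and higher levels of genes of both endoderm lists, among them Gata6, Sox17, Cubn and Srgn. Of 19261 genes tested, 688 were higher and 579 lower in Mtf2 null cells, where a call throughout required an adjusted p under 0.001 together with a change beyond 1 on the log2 scale in either direction. This was 6.58% of the genes tested (3.57% higher and 3.01% lower), and the median log2 fold change over all of them was -0.004. With scaling by library totals alone the split turned to 522 higher and 770 lower, with a median over all genes of -0.172, and every median of a gene list below is to be read against that shift. The estimated counts of the 4 libraries summed to 12860636 and 14776127 in WT and to 11550391 and 13889447 in Mtf2 null, and 3 counts corresponded to 0.191 to 0.277 CPM, the count relative to the scaled total of its library. Levels below are CPM, log2 fold changes are Mtf2 null minus WT and carry their standard error (SE), and adjusted p-values are from edgeR's quasi-likelihood test with Benjamini-Hochberg adjustment over all genes tested. The abundant genes Gm26917 and Gm42418, which resemble ribosomal RNA, held 17.0 and 15.8% of the counts in WT and 21.3 and 21.0% in Mtf2 null, without overlap, and without them 682 genes were higher and 586 lower. In bulk RNA, fewer cells that express a gene and less RNA per cell cannot be told apart.

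The targeted gene was checked first. Mtf2 (chromosome 5, 108065674 to 108109004, GRCm38) was at 275 and 307 CPM in WT and at 34.6 and 36.8 CPM in Mtf2 null libraries, a log2 fold change of -3.03 ± 0.12 (adjusted p = 1.99e-14). Over all 8 Mtf2 null libraries of the endoderm series it stayed between 31.1 and 36.8 CPM, below the 218 to 509 CPM of the 8 WT libraries. Mtf2 was the 1 called gene among 14 PRC2 genes (7.14%, beside 6.58% of all genes tested), whose median log2 fold change was 0.02. The catalytic subunit gene Ezh2 had 98.5 and 105 CPM in WT and 97.0 and 103 CPM in Mtf2 null, and the ranges of the genotypes also overlapped for the core subunit genes Eed and Suz12 (log2 fold changes of -0.14 ± 0.11 and 0.25 ± 0.12). Jarid2, the accessory subunit gene of PRC2.2, was at 339 and 335 CPM in WT and at 489 and 457 CPM in Mtf2 null, without overlap, and its log2 fold change of 0.49 ± 0.11 did not reach the call (adjusted p = 0.00219).

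The first question was whether Mtf2 null cells entered the primitive streak program at 24 h as WT cells did. T was lower in them, while Eomes was not distinguishable between the genotypes. T (chromosome 17, 8434423 to 8442496) was at 27 and 22.3 CPM in WT and at 3.60 and 3.69 CPM in Mtf2 null libraries, 6.74-fold lower (log2 fold change -2.75 ± 0.27, adjusted p = 7.99e-08). Both Mtf2 null libraries thus lay well under both WT libraries. Eomes, the other T-box gene of the early streak, was at 9.88 and 11.2 CPM in WT and at 10.2 and 8.37 CPM in Mtf2 null, and the groups overlapped (log2 fold change -0.19 ± 0.17, adjusted p = 0.482). Both genes rose between undifferentiated cells and 24 h in either genotype. T rose by a log2 of 6.96 in WT and 6.14 in Mtf2 null cells, from means of 0.188 and 0.0418 CPM, and Eomes rose by 1.97 and 1.38.

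Among 25 listed genes of the primitive streak, 20 passed the filter on low counts, 0 were called higher and 2 lower, T and Nkx1-2, a homeobox gene of the caudal streak (4.65 and 3.39 CPM in WT, 0.92 and 0.38 CPM in Mtf2 null). The 2 called were 10% of the 20, beside 6.58% of all genes tested, and the median log2 fold change of the 20 was -0.17. Mixl1, a homeobox gene that follows Nodal signals in the streak, was below 1 CPM in all 4 libraries, and Gsc, Mesp1, Msgn1, Cdx4 and Noto did not pass the filter. Over the 24 h, 9 of the 20 rose and 1 fell in WT, beside 3.22% and 2.09% of all genes tested. In Mtf2 null 3 rose and 0 fell, beside 1.81% and 1.43%. The difference between the genotype effects at 24 h and before was called for 0 of the 20.

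T is shown together with Cubn, which encodes the endocytic receptor cubilin of visceral endoderm and moved the other way. The 250 bases before each gene's RefSeq start are printed because the missing subunit binds CG-containing DNA. For Cubn this start lies upstream of the GENCODE gene position given below, so that the window does not adjoin that position. The sequences are from RefSeq (GRCm38.p6), each on the strand of its gene and 5′ to 3′, and capitals mark CG dinucleotides.
T, chr17:8434173-8434422, plus strand: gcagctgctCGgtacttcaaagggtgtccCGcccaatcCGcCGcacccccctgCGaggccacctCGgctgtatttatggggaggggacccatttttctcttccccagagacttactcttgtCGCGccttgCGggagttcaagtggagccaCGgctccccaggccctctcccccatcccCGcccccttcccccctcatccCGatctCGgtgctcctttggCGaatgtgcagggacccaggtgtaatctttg
Cubn, chr2:13491877-13492126, minus strand: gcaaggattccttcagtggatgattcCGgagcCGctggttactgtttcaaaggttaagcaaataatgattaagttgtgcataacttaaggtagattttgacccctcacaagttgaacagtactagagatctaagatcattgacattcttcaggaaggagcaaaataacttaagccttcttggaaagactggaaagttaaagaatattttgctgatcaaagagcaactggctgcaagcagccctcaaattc
The window before T held 14 CG dinucleotides, a number reached by 29.4% of 32851 windows of this length before RefSeq gene starts, whose median was 6. The window before Cubn held 2, which 81.2% of windows reached. These counts describe the letters of the windows, and binding was not measured in these libraries.

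Signals of the induction medium were next. Of the Nodal pathway genes, 0 of 17 tested were higher and 2 were lower (11.8% called, beside 6.58% of all genes tested), and their median log2 fold change was -0.01. The ligand gene Nodal itself was at 62.4 and 66.4 CPM in WT and at 71.7 and 65.7 CPM in Mtf2 null, with overlapping groups (log2 fold change 0.09 ± 0.11). Lefty2 encodes a secreted Nodal antagonist that Nodal signaling induces. It was at 452 and 496 CPM in WT and at 177 and 195 CPM in Mtf2 null, 2.55-fold lower (log2 fold change -1.35 ± 0.19, adjusted p = 1.75e-05). The genotypes did not overlap, but the call was lost without Mtf2 null replicate 1 (adjusted p = 0.00109). The paralog Lefty1 was not called, at 119 and 125 CPM in WT and 86.3 and 100 CPM in Mtf2 null, nor were the receptor genes Acvr1b, Acvr2a and Acvr2b or the signal transducer genes Smad2, Smad3 and Smad4.

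The Wnt list of feedback genes, ligands, receptors and inhibitors had 4 genes higher and 1 lower of 25 tested (20% called, beside 6.58% of all genes tested). Its median log2 fold change was 0.26. Dkk1, a secreted Wnt antagonist gene, was at 0.218 and 0.319 CPM in WT and at 10.2 and 9.5 CPM in Mtf2 null, 35.1-fold higher (log2 fold change 5.13 ± 0.29, adjusted p = 1.07e-11). The ligand gene Wnt7b was at 0.654 and 1.09 CPM in WT and at 6.46 and 6.33 CPM in Mtf2 null (log2 fold change 2.85 ± 0.26, adjusted p = 3.26e-08). A second ligand gene, Wnt11, and the receptor gene Fzd1 were the other genes called higher. Sp5, a transcriptional target that feeds back on Wnt signaling, was the gene called lower, with 7.56 and 8.82 CPM in WT and 1.38 and 3.01 CPM in Mtf2 null (log2 fold change -1.87 ± 0.37, adjusted p = 0.000775). Axin2, the standard feedback gene of the pathway, was at 88.4 and 78.6 CPM in WT and at 51.0 and 48.7 CPM in Mtf2 null, without overlap, and its log2 fold change of -0.74 ± 0.16 stayed inside the limit of the call. The call of Sp5 was lost when any 1 of the 4 libraries was left out (adjusted p of 0.001 to 0.0231) and with DESeq2 (0.00205). Axin2 rose from the undifferentiated cells in both genotypes, by a log2 of 2.93 in WT and 3.84 in Mtf2 null.

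FGF ligands, receptors and feedback genes of the ERK kinases gave 4 higher and 1 lower of 23 tested (21.7% called, beside 6.58% of all genes tested). Their median was 0.14. The receptor gene Fgfr2 was at 1.16 and 1.41 CPM in WT and at 6.74 and 6.33 CPM in Mtf2 null (log2 fold change 2.33 ± 0.23, adjusted p = 1.1e-07). Fgfr3, a second receptor gene, the ERK phosphatase gene Dusp5 (1.85 ± 0.22) and the immediate early gene Egr1 (2.20 ± 0.34) were higher as well. The ETS factor gene Etv1 was lower, with 36.9 and 43.7 CPM in WT and 20.9 and 18.0 CPM in Mtf2 null (-1.06 ± 0.14). Without Mtf2 null replicate 2 or WT replicate 2 the value for Etv1 was -0.95 or -0.93, inside the limit, and without WT replicate 2 Egr1 missed the call (adjusted p = 0.00313). Fgf4, the main FGF ligand gene of ESCs, was at 107 and 103 CPM in WT and at 164 and 174 CPM in Mtf2 null, a difference of 0.68 ± 0.12 that was not called for its size.

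BMP and TGF-β genes had 3 higher and 1 lower of 22 tested (18.2% called, beside 6.58% of all genes tested), with a median of 0.74. The gene called lower was the ligand Bmp4, at 48.3 and 44.1 CPM in WT and at 15.8 and 14.5 CPM in Mtf2 null (log2 fold change -1.61 ± 0.21, adjusted p = 3.83e-06). The genes called higher were the ligand Bmp6 and 2 inhibitors of helix-loop-helix factors that BMP signals induce, Id1 (10.8 and 9.46 CPM against 26.9 and 19.7 CPM, 1.19 ± 0.24) and Id2 (2.18 and 3.00 CPM against 7.38 and 8.14 CPM, 1.57 ± 0.24). Of the fits with 1 library left out, Id1 kept its call only in that without Mtf2 null replicate 2 (adjusted p of 0.00515, 0.0174 and 0.0213 without WT replicate 1, WT replicate 2 and Mtf2 null replicate 1), and Id2 lost it without WT replicate 1 (0.00179) or Mtf2 null replicate 2 (0.00123). Bmp2 was below 1 CPM in all 4 libraries and was not called (2.13 ± 0.85, adjusted p = 0.0728).

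**Figure D1:**
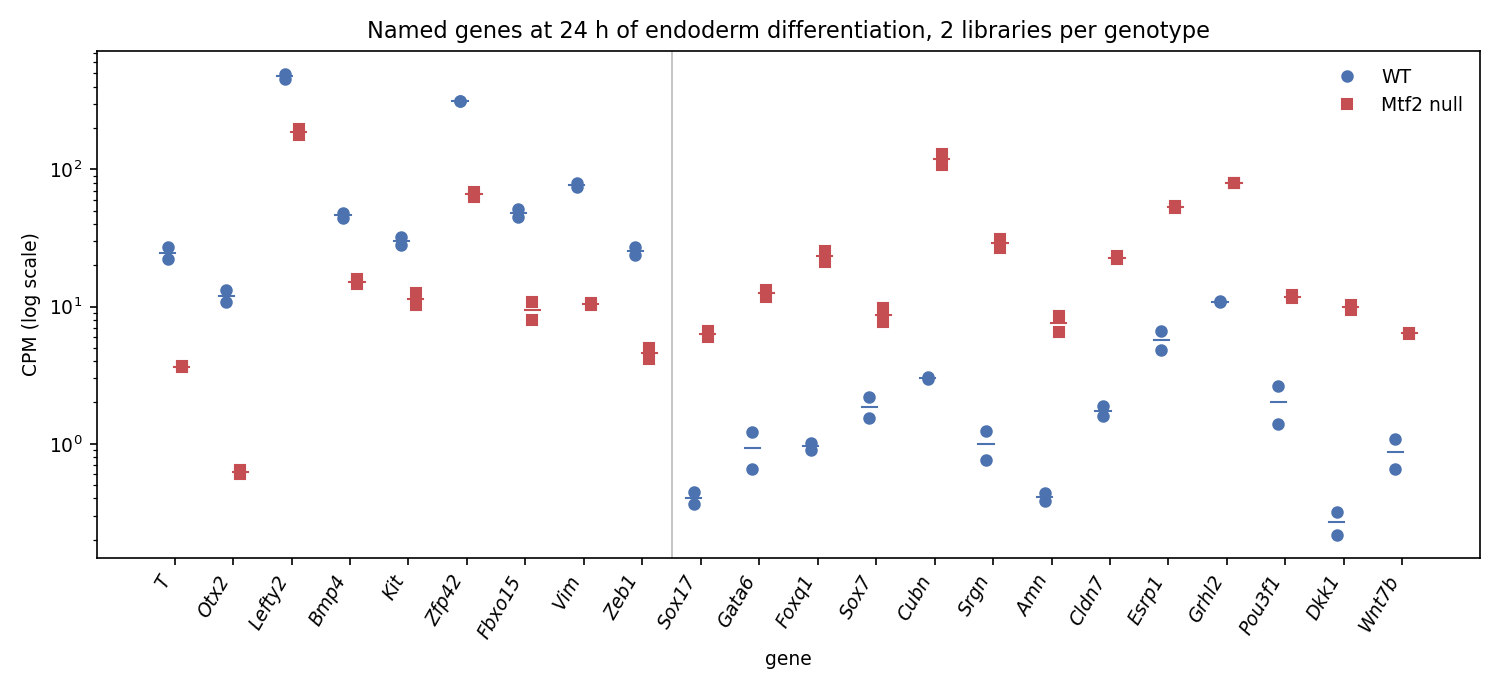
Levels of named genes in the 4 libraries at 24 h of endoderm differentiation, in CPM on a log axis, with circles for WT, squares for Mtf2 null, and a short line at the mean of 2 libraries. T, Otx2, Lefty2, Bmp4, Kit, Zfp42, Fbxo15, Vim and Zeb1 on the left are lower in both Mtf2 null libraries than in both WT libraries, and the genes from Sox17 to Wnt7b on the right are higher.

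Genes of definitive endoderm were higher in Mtf2 null cells at 24 h, when WT cells held little of most of them, and many were higher before differentiation, as given below. Of 18 tested among 23 listed, 12 were called higher and 0 lower, beside 3.57% and 3.01% of all genes tested. The median log2 fold change was 2.08, beside -0.004 over all genes tested. Sox17 (chromosome 1, 4490931 to 4497354), the SOX factor gene of endoderm, was at 0.363 and 0.447 CPM in WT and at 6.65 and 6.03 CPM in Mtf2 null (log2 fold change 3.92 ± 0.49, adjusted p = 2.66e-06). Gata6, the gene of a zinc finger factor of endoderm and heart, was at 0.654 and 1.21 CPM in WT and at 13.3 and 11.8 CPM in Mtf2 null, 13.1-fold higher (3.71 ± 0.24, adjusted p = 1.35e-10). The forkhead gene Foxq1 was at 1.02 and 0.894 CPM in WT and at 25.6 and 21.1 CPM in Mtf2 null (4.6 ± 0.25, adjusted p = 7.59e-12). For each of these the 2 genotypes were far apart, and the difference was many times the gap between duplicates.

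The other called members included the transcription factor genes Foxa2 and Gata4 and the epithelial genes Cldn4, Cldn6, Epcam, Krt8, Krt18 and Krt19. Foxa2 had 0.07 and 0 CPM in WT and 3.69 and 1.81 CPM in Mtf2 null. Epcam, a cell adhesion gene, had 66.5 and 61.3 CPM in WT and 240 and 222 CPM in Mtf2 null (1.85 ± 0.10). Those not called were Foxa3, Cxcr4, Hhex, Prdm1, Trh and Hnf4a. Hnf4a, a nuclear receptor gene of visceral endoderm and liver, was at 2.18 and 2.36 CPM in WT and at 1.02 and 1.06 CPM in Mtf2 null (-1.13 ± 0.41, adjusted p = 0.0493). The members that were higher thus included epithelial keratins and claudins that are not limited to definitive endoderm.

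Primitive and visceral endoderm genes showed the same direction, with 13 of 22 tested called higher and 0 lower, beside 3.57% and 3.01% of all genes tested. Their median was 2.19. Cubn (chromosome 2, 13276338 to 13491813) was at 2.98 and 3.07 CPM in WT and at 128 and 108 CPM in Mtf2 null, 38.9-fold higher (log2 fold change 5.28 ± 0.20, adjusted p = 1.3e-14). Amn, whose product amnionless carries cubilin to the cell surface, was at 0.436 and 0.383 CPM in WT and at 8.58 and 6.56 CPM in Mtf2 null (4.17 ± 0.33). Srgn, the gene of the proteoglycan serglycin, was at 1.24 and 0.767 CPM in WT and at 31.3 and 26.8 CPM in Mtf2 null (4.86 ± 0.25), and the endoderm factor gene Sox7 was at 2.18 and 1.53 CPM and at 9.69 and 7.76 CPM (2.23 ± 0.22). The basement membrane genes Col4a1, Col4a2, Lama1, Lamb1 and Sparc were also higher. Col4a1 had 36.7 and 33.8 CPM in WT and 303 and 230 CPM in Mtf2 null (2.92 ± 0.16). Apoe, Dab2, Pdgfra and Pth1r completed the called members. Of the secreted proteins that define mature visceral endoderm, Ttr was at 0 CPM in both WT libraries and at 0.28 and 0.15 CPM in Mtf2 null, Rbp4 was below 1 CPM in all 4 libraries, and Apoa1, Apom and Afp did not pass the filter. The summed level of the list was 1214 to 1279 CPM in WT and 2804 to 3320 CPM in Mtf2 null. Both endoderm lists were thus higher at the same time, and which kind of endoderm the transcripts came from was not tested.

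Both endoderm lists also held many genes called higher before differentiation. In undifferentiated cells 12 definitive endoderm genes were called higher and 1 lower (median 2.11), and 17 of the primitive and visceral list were higher (median 2.12). Of all genes tested, 6.23% were higher and 4.77% lower there. At 48 h the counts were 14 and 1 (median 2.70) and 19 and 0 (median 4.39), beside 6.37% higher and 4.17% lower of all genes tested. Gata6 had means of 2.02 and 17.8 CPM in undifferentiated WT and Mtf2 null cells, and 1.10 and 58.8 CPM at 48 h. For Sox17 the means were 0.757 and 8.54 CPM in undifferentiated WT and Mtf2 null cells, and 0.275 and 32.5 CPM at 48 h. Cubn went from 12.3 and 185 CPM in undifferentiated cells to 12.1 and 1256 CPM at 48 h. In the test of the difference between time points, neither Gata6 nor Cubn passed the call at 24 h against undifferentiated cells (0.58 ± 0.36 and 1.37 ± 0.27) or against 48 h (-2.04 ± 0.40 and -1.41 ± 0.28, adjusted p = 0.00143 and 0.00153). Of the 2 lists, 4 other genes had a called lower effect at 24 h than in undifferentiated cells, and 0 a higher one, where 2.36% of all genes tested differed in either direction. These were Prdm1 (-1.97 ± 0.20), a repressor gene, the activin binding protein gene Fst, the laminin gene Lamc1 (-1.36 ± 0.20) and the collagen chaperone gene Serpinh1 (-1.44 ± 0.19).

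**Figure D2:**
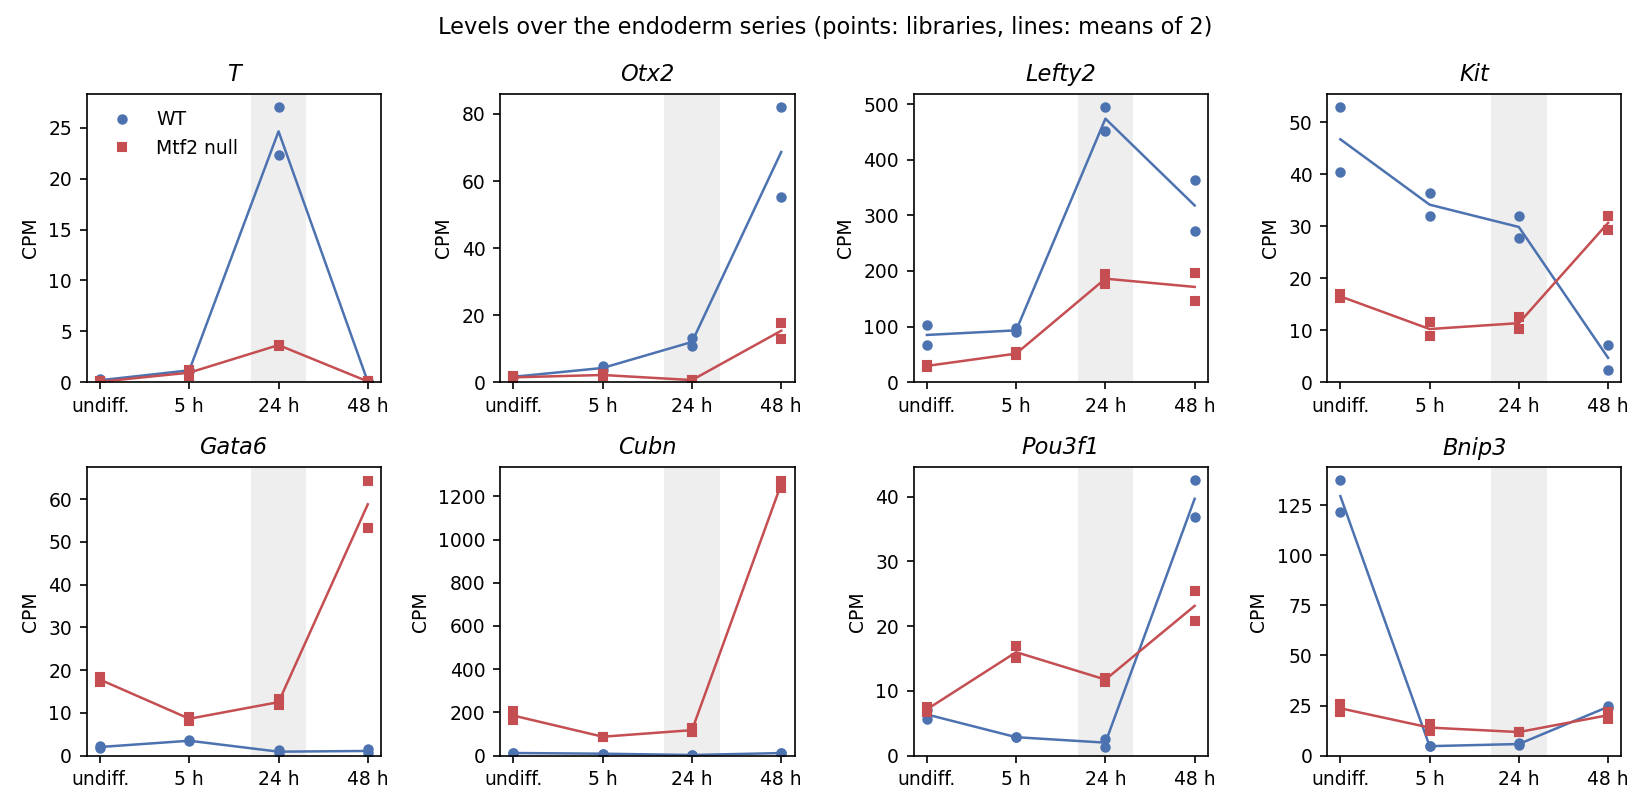
Levels in CPM of 8 genes in undifferentiated cells and at 5, 24 and 48 h of the endoderm series, with points for libraries, lines through the means of 2 libraries, and the 24 h libraries shaded. The gap in T is seen at 24 h, where WT reaches a mean of 24.7 CPM and Mtf2 null 3.65 CPM, the gap in Gata6 and Cubn is there at every time, and Bnip3 and Kit change sides.

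Pluripotency genes were called in both directions at 24 h. Of 20 naive and core pluripotency genes, 2 were higher and 3 lower, 25% against 6.58% of all genes tested, and their median log2 fold change was 0.01, after 0.54 in undifferentiated cells. Over the 24 h, 0 rose and 4 fell in WT, beside 3.22% and 2.09% of all genes tested. In Mtf2 null 1 rose and 5 fell, beside 1.81% and 1.43%. The genotype effect was lower at 24 h than before for 3 of the 20 and higher for 0, beside 1.66% and 0.706% of all genes tested. These were the naive factor genes Klf5 (-1.45 ± 0.23), Nr0b1 (-1.02 ± 0.17) and Tfcp2l1 (-1.22 ± 0.22). Pou5f1 and Sox2, the core factor genes, were not called, with 600 and 591 CPM of Pou5f1 in WT and 567 and 528 CPM in Mtf2 null. Esrrb, a nuclear receptor gene of the naive state, was at 433 and 424 CPM in WT and at 337 and 335 CPM in Mtf2 null, without overlap, but its log2 fold change of -0.35 ± 0.16 was not called (adjusted p = 0.118). Dppa3 was higher, from 1.02 and 0.958 CPM in WT to 12.2 and 11.5 CPM in Mtf2 null (3.57 ± 0.25, adjusted p = 5.3e-10), and so was Dppa5a (1.12 ± 0.13). Zfp42 (Rex1), a standard marker of ESCs, was lower, at 312 and 316 CPM in WT and 68.7 and 62.8 CPM in Mtf2 null (-2.26 ± 0.11, adjusted p = 2.25e-12), as were Fbxo15 (-2.35 ± 0.15) and Tcl1 (-1.04 ± 0.20), whose call was lost without any 1 of the 4 libraries (adjusted p of 0.00259 to 0.0170). Zfp42 was lower by a similar amount in undifferentiated cells (-2.49), so this was not a difference that arose during the 24 h.

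The formative and primed epiblast genes moved both ways, with 4 higher and 3 lower of 20 (35% called, beside 6.58% of all genes tested) and a median of 0.42. Otx2 (chromosome 14, 48657677 to 48673819), a homeobox gene that marks the exit from the naive state, was at 10.8 and 13.2 CPM in WT and at 0.646 and 0.603 CPM in Mtf2 null, 19.0-fold lower (log2 fold change -4.25 ± 0.32, adjusted p = 1.58e-09). It rose by 2.90 in WT between undifferentiated cells and 24 h, and in Mtf2 null cells it had a log2 change of -1.20 that was not called. The zinc finger genes Zic2 and Zic5 were lower too (-1.96 ± 0.25 and -1.47 ± 0.19). Pou3f1 (Oct6), a POU factor gene of the epiblast, was higher in Mtf2 null, with 2.62 and 1.41 CPM in WT and 11.4 and 12.1 CPM in Mtf2 null (2.56 ± 0.23, adjusted p = 2.64e-08). The de novo DNA methyltransferase gene Dnmt3b was at 78.3 and 79.2 CPM in WT and at 240 and 208 CPM in Mtf2 null (1.51 ± 0.16), its cofactor gene Dnmt3l was at 92.8 and 100 CPM and at 225 and 206 CPM (1.16 ± 0.10), and the epithelial factor gene Grhl2 was at 10.8 and 10.9 CPM and at 79.4 and 79.8 CPM (2.87 ± 0.14). Genes of one epiblast list therefore stood on opposite sides at the same time point.

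Of 15 genes of the epithelial-mesenchymal transition, 5 were higher and 2 lower (46.7% called, beside 6.58% of all genes tested), with a median of 0.44. The tight junction genes Cldn7 (1.89 and 1.60 CPM in WT, 23.2 and 22.2 CPM in Mtf2 null, log2 fold change 3.70 ± 0.22), Cldn3 and Ocln (1.34 ± 0.17) and the epithelial splicing factor gene Esrp1 (6.61 and 4.79 CPM in WT, 53.8 and 51.9 CPM in Mtf2 null, 3.22 ± 0.19) were higher, and so was Twist1, which is a mesenchymal factor gene. Vim, the intermediate filament gene of mesenchymal cells, was at 73.7 and 79.2 CPM in WT and at 10.5 and 10.3 CPM in Mtf2 null (-2.87 ± 0.17, adjusted p = 2.94e-11). Zeb1, a repressor gene of the epithelial state, was at 23.8 and 27 CPM in WT and at 4.15 and 4.97 CPM in Mtf2 null (-2.47 ± 0.16). Cdh1 (E-cadherin) was at 270 and 263 CPM in WT and at 373 and 349 CPM in Mtf2 null and was not called (0.44 ± 0.13, adjusted p = 0.0129), and Cdh2 (N-cadherin) overlapped between the genotypes.

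Lists of other lineages had 1 to 4 called genes each, which was 10 to 30% of their tested members, against 6.58% of all genes tested. Among the neural ectoderm genes 3 were higher and 1 lower of 17, with a median of -0.01. Olig2, a helix-loop-helix gene of the neural tube, was at 0 CPM in both WT libraries and at 31.8 and 33.2 CPM in Mtf2 null, at least 318-fold higher when WT is set to a floor of 3 counts over both libraries. Sox11 was at 24.5 and 27.8 CPM in WT and at 102 and 112 CPM in Mtf2 null (2.03 ± 0.12), the filament gene Nes was higher (1.55 ± 0.23), and the neural SOX gene Sox1 was lower (-1.35 ± 0.25). Nes missed the call without WT replicate 2 (adjusted p = 0.00150), and Sox1 without WT replicate 1 (0.00230), WT replicate 2 (0.00328) or Mtf2 null replicate 2 (0.0215). Pax6 was at 1.09 CPM in both WT libraries, at 0.462 and 0.603 CPM in Mtf2 null, and not called. Cardiac and lateral mesoderm genes gave 3 higher and 0 lower of 15 (median 1.08), namely the T-box gene Tbx20 (2.03 and 2.24 CPM against 10.8 and 12.8 CPM), Foxf2 and Twist1. Of 10 trophoblast genes, 3 were higher and 0 lower (median 0.59). These were the AP-2 factor gene Tfap2c (6.32 and 6.84 CPM in WT, 28.2 and 28.7 CPM in Mtf2 null, 2.11 ± 0.17), Peg10 (1.81 ± 0.12) and Sfmbt2 (1.16 ± 0.15), while the trophoblast factor gene Elf5 overlapped between the genotypes. Hox genes were mostly below the filter, 10 of 34 were tested, and 1, Hoxb9, was lower (median 1.07). Germ cell genes had 2 higher, Sycp1 and Tex15, and 1 lower, Kit, of 14 (median -0.05). Kit missed the call without WT replicate 1 (adjusted p = 0.00146) or Mtf2 null replicate 2 (0.00487).

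Further lists check the state of the cultures. Genes of the S and G2/M phases had 0 called of 22 (median 0.05), with Mcm2 at 310 and 302 CPM in WT and 294 and 283 CPM in Mtf2 null. Of 15 p53 target genes, 1 was higher and 0 lower (6.67% called, beside 6.58% of all genes tested, median 0.06). That gene was Pmaip1 (Noxa), a proapoptotic gene at 36.8 and 37.5 CPM in WT and 180 and 176 CPM in Mtf2 null (2.26 ± 0.13), whereas Cdkn1a (p21) overlapped between the genotypes. In undifferentiated cells 6 of the 15 had been higher in Mtf2 null (median 0.80), beside 6.23% of all genes tested. Over the 24 h, 11 rose in WT and 4 in Mtf2 null, beside 3.22% and 1.81% of all genes tested. The genotype effect was lower at 24 h than before for 4 of the 15, beside 1.66% of all genes tested. These were Perp (-1.52 ± 0.18), Mdm2 (-1.28 ± 0.13), Plk2 (-1.71 ± 0.18) and Sesn2 (-1.50 ± 0.16). Feeder fibroblast genes had 0 called of 6 (median 0.29), their summed level was 28.6 to 33.6 CPM in WT and 36.9 to 38.2 CPM in Mtf2 null, and Col1a2, Col3a1, Dcn, Lum and Postn did not pass the filter. Genes of 2-cell-like cells had 0 called of 5 (median -3.91), since Zscan4c, Zscan4f and Gm8300 were at 0 CPM in both Mtf2 null libraries and at most 1.09 CPM in WT. The sex-chromosome genes had 0 called of 6 (median -0.09). Glycolysis and hypoxia genes gave 3 higher and 0 lower of 20 entries, which count Aldoa under 2 gene identifiers (15% called, beside 6.58% of all genes tested, median 0.18). These were Bnip3, Ndrg1 and Eno1. Ndrg1 missed the call without WT replicate 2 (adjusted p = 0.00356) or Mtf2 null replicate 1 (0.00192), and Bnip3 without any 1 of the 4 libraries (0.00165 to 0.0112). Eno1 and its near-identical copy Eno1b were counted apart. Their sum was 1379 and 1314 CPM in WT and 1421 and 1276 CPM in Mtf2 null, so that the difference in Eno1 alone (1.74 ± 0.13) is uncertain.

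**Figure D3:**
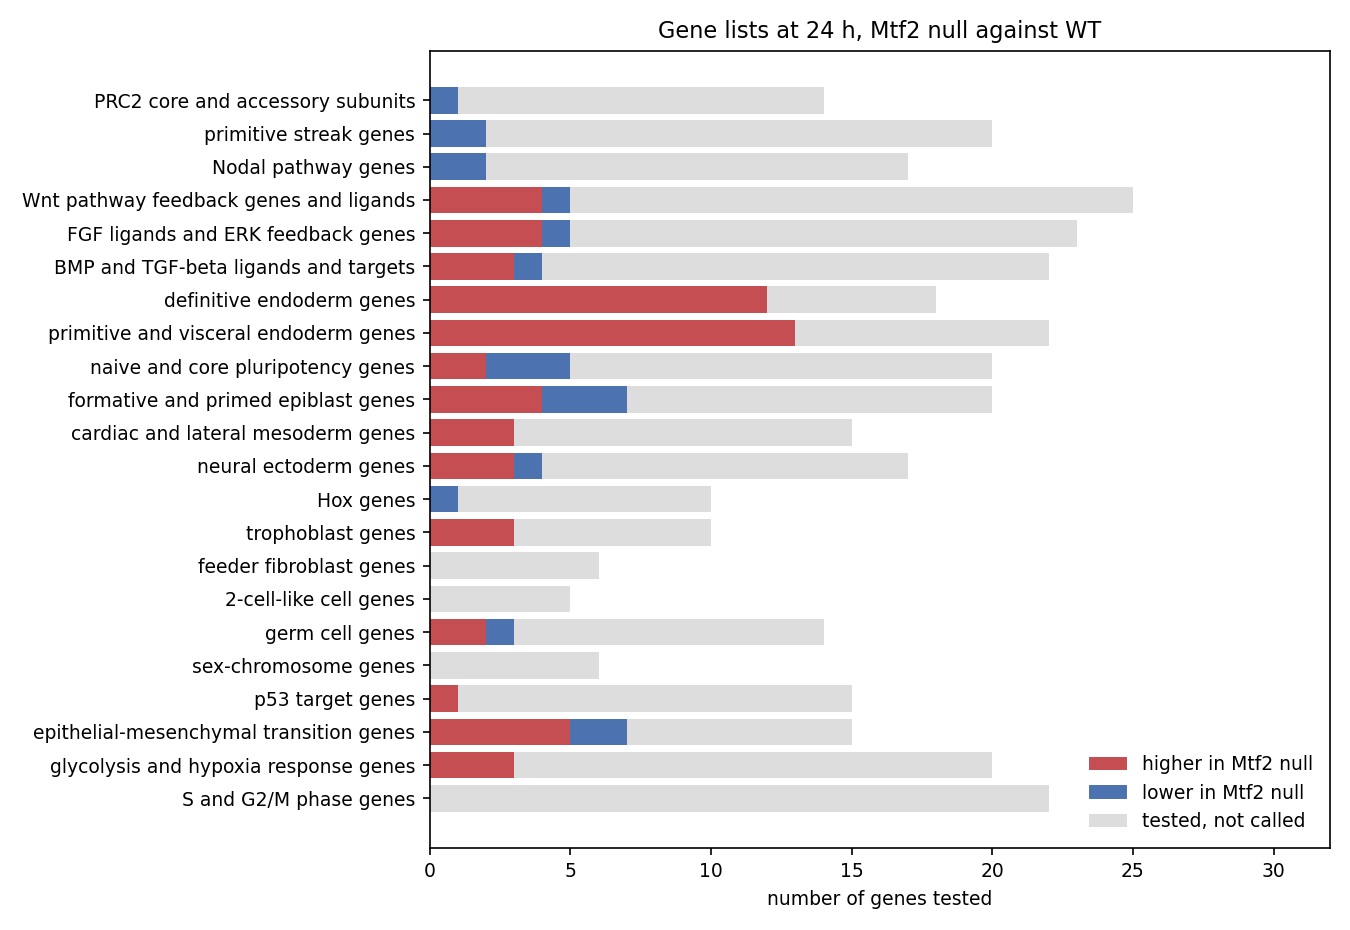
Number of genes tested in each of 22 lists at 24 h, split into those called higher in Mtf2 null cells (red), called lower (blue) and not called (grey). The bars for definitive endoderm (12 of 18) and for primitive and visceral endoderm (13 of 22) hold the most genes called higher, against 3.57% over all genes tested.

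To find which differences were particular to 24 h, the genotype effect was compared with that at other times in the same fit. In undifferentiated cells 1200 genes were called higher and 918 lower (11.0% of the genes tested), at 5 h 688 and 777 (7.61%), and at 48 h 1226 and 803 (10.5%). Of the 1267 genes called at 24 h, 887 were called in the same direction in undifferentiated cells, which is 70.0% of the genes at 24 h and 41.9% of those in undifferentiated cells, and 5 were called in the opposite direction. With 5 h, 878 genes were shared, 69.3% of the 24 h genes and 59.9% of those at 5 h, with 0 opposite. With 48 h, 807 were shared, 63.7% and 39.8%, and 7 were opposite. In the mesoderm series at 24 h, 511 genes were higher and 540 lower of 18361 tested (5.72%), and 843 were shared, 66.5% of the endoderm genes and 80.2% of the mesoderm genes. Taking the 4 comparisons together, 1178 genes (93.0%) were called in the same direction in at least 1 of them and 456 (36.0%) in all 4.

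The remaining 89 genes (7.02%), 58 higher and 31 lower, were called only at 24 h of the endoderm series. They included T and Sp5 among the genes lower and Id1, Nes, Dll1, a Notch ligand gene, and Dusp9, an ERK phosphatase gene, among those higher. Dusp9 was at 23.4 and 23.5 CPM in WT and at 73.2 and 58.1 CPM in Mtf2 null (log2 fold change 1.48 ± 0.14), and its log2 fold changes of 0.30 to 0.94 elsewhere were not called. In mesoderm at 24 h, Dll1 and Nes had log2 fold changes of 2.09 and 1.64 that were not called, beside 1.97 and 1.55 in endoderm. T, Sp5 and Id1 had -0.57, -0.45 and -0.02 there. Being called once is thus not a test of a difference between time points or series, and those tests follow.

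The difference of the genotype effect between 24 h and undifferentiated cells was called for 455 genes (2.36% of 19261), 136 with a higher value at 24 h and 319 with a lower one. With 1 library left out, the count was 241 without Mtf2 null replicate 1, 229 without Mtf2 null replicate 2, 315 without WT replicate 1 and 230 without WT replicate 2. Otx2 had the larger difference of the transcription factor genes Otx2 and Pou3f1. Undifferentiated cells had means of 1.60 CPM in WT and 1.44 CPM in Mtf2 null, and the effect at 24 h was lower by 4.10 ± 0.56 (adjusted p = 4.71e-05). Adgrd1, an adhesion receptor gene, had means of 3.25 and 5.04 CPM in undifferentiated cells and was at 5.67 and 5.75 CPM in WT and 0.646 and 0.226 CPM in Mtf2 null at 24 h (difference -4.37 ± 0.44). Pou3f1 was on the other side, with undifferentiated means of 6.36 and 7.16 CPM and an effect at 24 h that was higher by 2.39 ± 0.32 (adjusted p = 4.19e-05). It fell in WT over the 24 h (-1.68) and was not called changed in Mtf2 null cells (0.72). For T the difference could not be called (-0.82 ± 2.33), since the gene was almost absent in undifferentiated cells of either genotype.

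Of 20 entries for genes of glycolysis and the hypoxia response, 7 had a called higher value at 24 h and 0 a lower one. Of all genes tested, 0.706% had a higher value and 1.66% a lower one. In undifferentiated cells 5 genes of the list were lower in Mtf2 null and 1 was higher, beside 4.77% and 6.23% of all genes tested. Bnip3, the gene of a mitochondrial autophagy receptor induced by hypoxia, had means of 130 CPM in WT and 23.6 CPM in Mtf2 null before differentiation (log2 fold change -2.45) and was at 5.23 and 6.39 CPM in WT and at 11.8 CPM in both Mtf2 null libraries at 24 h (1.01 ± 0.19). The difference between the 2 effects was 3.47 ± 0.24 (adjusted p = 1.62e-08). Slc2a1, the glucose transporter gene, fell from 461 CPM in WT and 166 CPM in Mtf2 null to 81.5 and 83.7 CPM in WT and 82.1 and 82.3 CPM in Mtf2 null (difference 1.46 ± 0.14). Outside the list, the lactate transporter gene Slc16a3 (3.60 ± 0.22) and the cell cycle inhibitor gene Cdkn1c (3.13 ± 0.21), which fell in WT by 3.47 and 3.24 on the log2 scale, had the same pattern. Bnip3 fell by 4.47 on the log2 scale over 24 h in WT and fell by 1.00 in Mtf2 null.

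Itpr2 and Fst had a gap before differentiation that was smaller or gone at 24 h. Itpr2, a calcium channel gene, had means of 1.79 CPM in WT and 33.8 CPM in Mtf2 null in undifferentiated cells and overlapped at 24 h (4.21 and 2.75 CPM, 3.05 and 3.92 CPM). Fst encodes follistatin, which binds activin. It went from 0.283 and 5.87 CPM in undifferentiated cells to 10.4 and 11.9 CPM in WT and 19.6 and 19.9 CPM in Mtf2 null at 24 h (difference -3.51 ± 0.63), having risen by 5.26 in WT and 1.75 in Mtf2 null. The difference in Fst lost its call without any 1 of the 4 libraries (adjusted p of 0.00137 to 0.00281).

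Over the 24 h as such, 620 genes rose and 403 fell in WT (5.31% of the genes tested), and 348 rose and 276 fell in Mtf2 null cells (3.24%). Of these, 133 rose in both, which is 21.5% of the genes that rose in WT and 38.2% of those that rose in Mtf2 null, and 98 fell in both (24.3% and 35.5%), while 1 fell in WT and rose in Mtf2 null. Lefty2 was among those that rose in both, by 2.48 in WT and 2.67 in Mtf2 null on the log2 scale. Its genotype effect at 24 h did not differ detectably from that in undifferentiated cells (0.19 ± 0.28).

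Between 24 h and 48 h the genotype effect differed for 519 genes (2.69%), 129 with a higher value at 24 h and 390 with a lower one. The count was 293 without Mtf2 null replicate 2, 323 without WT replicate 1, 338 without WT replicate 2 and 377 without Mtf2 null replicate 1. Epithelial and epiblast genes were among those with a higher value at 24 h, and the WT mean of each of those named here was higher at 48 h than at 24 h. Esrp1 had means of 62.1 CPM in WT and 84.9 CPM in Mtf2 null at 48 h, and its effect at 24 h was larger by 2.77 ± 0.24. Grhl2 (2.26 ± 0.19), Cldn7 (2.60 ± 0.28), Sox11 (1.80 ± 0.17), Dnmt3b (1.76 ± 0.21) and Nes (2.40 ± 0.29) behaved likewise. Pou3f1 had 39.7 CPM in WT and 23.1 CPM in Mtf2 null at 48 h (difference 3.34 ± 0.28), and Mal2, a gene of epithelial membrane traffic, had 3.76 and 5.54 CPM after 0.145 and 0.256 CPM in WT and 6.83 and 8.82 CPM in Mtf2 null at 24 h (4.64 ± 0.44).

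Genes with a lower value at 24 h than at 48 h included visceral endoderm and gut genes whose gap opened later. Hnf4a reached 17.3 CPM in Mtf2 null at 48 h against 0.593 CPM in WT, so that the effects differed by -5.98 ± 0.58 (adjusted p = 5.88e-07). Pga5, a pepsinogen gene, was at 0.872 and 1.02 CPM in WT and at 4.62 and 4.45 CPM in Mtf2 null at 24 h, and at means of 1.67 and 348 CPM at 48 h (-5.45 ± 0.40). Cdh6, a cadherin gene, differed by -5.54 ± 0.70. Kit, a receptor tyrosine kinase gene, changed sides. It was at 31.9 and 27.9 CPM in WT and at 12.6 and 10.2 CPM in Mtf2 null at 24 h (-1.40 ± 0.23), and at 4.68 CPM in WT and 30.7 CPM in Mtf2 null at 48 h (2.69), a difference of -4.09 ± 0.35. Xaf1, an apoptosis regulator gene, did the same (-2.53 at 24 h and 2.40 at 48 h, difference -4.92 ± 0.43).

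The effect at 24 h was then set beside that in the mesoderm series, in a joint fit of 48 libraries and 19601 genes. The series differ in BMP4, in the doses of the shared factors and in their libraries, which cannot be told apart. The genotype effect differed for 1 gene (0.00510%) by edgeR, with 1011 at an unadjusted p under 0.05 and 5 called by DESeq2. That gene, Gm10073, was at 53.2 and 61.3 CPM in endoderm WT and at 1.48 and 1.28 CPM in endoderm Mtf2 null, but at 0.814 and 0.365 CPM in WT and 1.90 and 2.76 CPM in Mtf2 null of the mesoderm series. Since the WT libraries of the 2 series themselves differed in it, it is reported as uncertain. T in mesoderm was at 55.6 and 59.8 CPM in WT and at 40.0 and 37.6 CPM in Mtf2 null, a log2 fold change of -0.57 ± 0.24 that was not called. The effect on T in endoderm was lower by 2.18 ± 0.38, a difference that was not called (adjusted p = 0.00757). Of the fits tried for it, only that without the filter on low counts called it (-2.21, adjusted p = 1.42e-11). That fit called 115 genes where the main fit called 1. For Cubn, Gata6 and Otx2 the mesoderm log2 fold changes were 4.87, 2.96 and -3.37, and their differences from endoderm were not called.

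The libraries labelled Jarid2 null were compared with the same WT libraries at 24 h. Jarid2 itself was at 288 and 283 CPM in them, beside 339 and 335 CPM in WT, and was not called (log2 fold change -0.24 ± 0.11, adjusted p = 0.539). Its transcript level thus does not check the label, and what the allele leaves of the transcript is not given in the sources used here. These libraries had 0 genes higher and 6 lower (0.0312%), with 1739 at an unadjusted p under 0.05. T had 23.6 and 28.2 CPM in them (log2 fold change 0.07), beside -2.75 in Mtf2 null. The values were 0.30 beside -4.25 for Otx2, -0.37 beside 3.71 for Gata6, -0.65 beside 3.92 for Sox17 and 0.52 beside 5.28 for Cubn. None of these genes was called in the libraries labelled Jarid2 null.

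The genes with the largest fold changes were of another kind. Of the 49 genes higher by more than 5 on the log2 scale 1 was a pseudogene, and of the 151 lower by more than 5, 108 were pseudogenes. Pseudogenes made up 1100 of the genes tested, and 17 of them (1.55%) were higher and 160 (14.5%) lower, against 598 (4.09%) and 343 (2.35%) of 14624 protein coding genes. Rps3a3, a processed pseudogene, was at 396 and 421 CPM in WT and at 0.0923 and 0 CPM in Mtf2 null. Gm6768, Gm10093, Gm9825, Gm45315, Gm13461, Gm21742 and Tdgf1-ps1 were at 0 CPM in both Mtf2 null libraries and between 17.9 and 54.1 CPM in WT. Reads of such copies and of their parent genes cannot be told apart with certainty. Tdgf1, which encodes the Nodal coreceptor Cripto, and Tdgf1-ps1 summed to 169 and 178 CPM in WT and to 274 and 299 CPM in Mtf2 null, a log2 ratio of 0.72. Rpl3 and Rpl3-ps1 summed to 1360 and 1407 CPM in WT and to 1455 and 1286 CPM in Mtf2 null (-0.01), although Rpl3 was called higher and its copy lower. For Zfp42 and Zfp42-ps1 the ratio of sums was -2.31, so that the lower level of Zfp42 did not depend on the copy.

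Of the 8 genes with the largest values on the higher side, Olig2 is given above. Gm49450, Gm12669, Gm8909 and Ubd, a ubiquitin-like gene, were at 0 CPM in both WT libraries and at least 200-fold, 183-fold, 90.4-fold and 88.4-fold higher by the same floor. Hprt, a purine salvage gene on the X chromosome, was at 0.218 and 0.383 CPM in WT and at 85.0 and 91.8 CPM in Mtf2 null. It was at 0.154 to 0.471 CPM in the 8 WT libraries, 0.131 to 0.692 CPM in the 8 libraries labelled Jarid2 null and 56.0 to 106 CPM in the 8 Mtf2 null libraries of the series. The noncoding gene Gm42047 was at 7.48 and 6.58 CPM in WT and at 1336 and 1234 CPM in Mtf2 null. Gm37951 was at 0 and 0.0639 CPM in WT and at 5.91 and 8.14 CPM in Mtf2 null. All 8 genes were called at every time of the endoderm series. E14 sublines selected for loss of Hprt are in common use, and the origin of the gap in Hprt or in the other genes was not tested. Gm49450 and Gm12669 were not called by DESeq2 (adjusted p of 0.00188 and 0.0347).

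Some chromosomes stood apart. Among genes with a mean of at least 1 CPM, the median log2 fold change at 24 h was -0.27 on chromosome 8 (811 genes) and -0.15 on chromosome 14 (555 genes), and between -0.05 and 0.08 on the other 18 chromosomes without Y. In undifferentiated cells the medians were -0.30 and -0.22, and in the libraries labelled Jarid2 null at 24 h they were 0.03 and -0.06. On chromosome 8 the median was between 0.00 and 0.11 in the 3 bins of 20 Mb before 60 Mb and between -0.30 and -0.47 in the 4 bins after it. On chromosome 14 it was -0.32 before 20 Mb (62 genes), -0.02 from 20 to 40 Mb, 0.08 from 40 to 60 Mb, where Otx2 and Bmp4 lie, and between -0.43 and -0.72 in the 4 bins after 60 Mb, where Zic2 and Zic5 lie. The part of these shifts in the values of single genes was not tested.

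**Figure D4:**
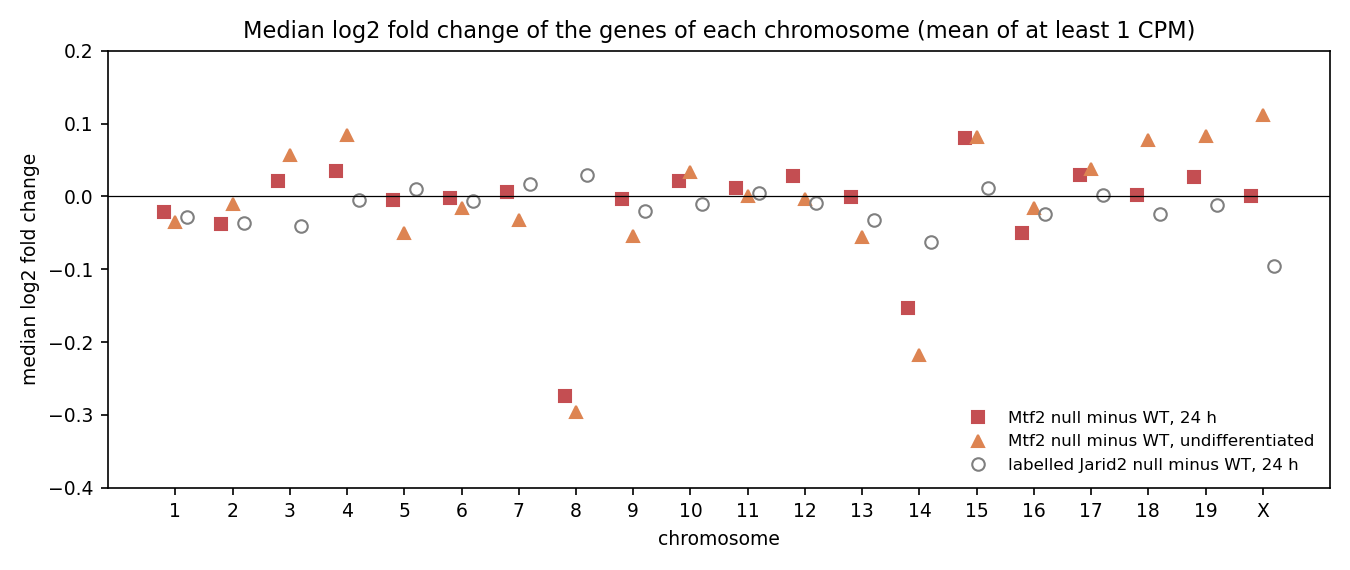
Median log2 fold change of the genes of each chromosome with a mean of at least 1 CPM, for Mtf2 null minus WT at 24 h (squares) and in undifferentiated cells (triangles), and for libraries labelled Jarid2 null minus WT at 24 h (open circles). Chromosome 8 at -0.27 and -0.30 and chromosome 14 at -0.15 and -0.22 lie apart from the other chromosomes for Mtf2 null cells, and do not for the libraries labelled Jarid2 null.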

How the data were processed

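RNA was depleted of ribosomal RNA and sequenced as 75-base read pairs on an Illumina NextSeq instrument. The authors made the deposited tables of estimated counts per gene with Salmon, and the submitters' processing notes name GRCm38/mm10 as the build. Of the values, 73.1% are whole to within 1e-06, and all were rounded. The endoderm table lists 54393 genes and 24 libraries with totals of 9889592 to 16372804 estimated counts and 0 columns of no sample. Other tables of the study (embryoid bodies, single cells) were not used here.

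Groups follow the labels. All 24 libraries entered a single fit in edgeR 4.0.16 (R 4.3.3) with TMM factors (0.850 to 1.11), the filterByExpr function (minimum count 10, minimum total 15), 1 mean per genotype and time, and the quasi-likelihood F test. The thresholds for a call (adjusted p of 0.001, log2 fold change of 1) were those of the study, which used DESeq2. The difference between media was fitted on 48 libraries and 53668 genes found in both tables. CPM values use library totals times TMM factors, SEs were taken from each log2 fold change and its F value, and floors of 3 counts cover counting error only. Gene positions are from GENCODE M21, and promoter sequences from RefSeq. Antisense and overlapping genes were counted as in the deposited table. The test was tested on simulated data for the 24 h comparison, where 100 of 100 genes changed 4-fold and 100 of 100 changed 8-fold were recovered among 18363 genes with 0 false calls. The changed genes were drawn from those with a mean of at least 100 counts per library. The spread of each gene was taken from the trend over all genes. Recovery of changes in genes at lower counts was not simulated.

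Genes were named by rule, namely the PRC2 subunits, genes that the study plots, the first and up to 3 called genes per direction of each list at 5 CPM or more, the 8 largest called changes per direction without overlap, and the 4 largest per direction of each difference. Other names, chosen after their values were seen, stand where a list's members are spelled out, in the genes called only at 24 h and in the closing section. Some genes of the lists are counted but not reported here by name. The comparison, the lists and the rule were chosen with earlier results of these data known.

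The duplicates at 24 h differed by more than sampling noise (chi-square per degree of freedom of 5.06 in WT and 6.24 in Mtf2 null). The replicate numbers were not treated as pairs. The deviations of same-numbered libraries at 24 h correlated at 0.374 over 11129 genes, but between -0.327 and 0.379 over all 66 pairs of groups. Alternatives were DESeq2 1.42.0, RLE and library-total scaling, other filters and thresholds, fits on the compared libraries alone, a replicate block and each 24 h library left out. A fit without the abundant genes Gm26917 and Gm42418 and one of protein coding genes only were chosen after seeing the data.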

Additional observations from a re-analysis of the deposited data

Results flagged for a closer look

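These results are listed because the test of a difference between 2 genotype effects was passed (edgeR's quasi-likelihood test, adjusted p under 0.001 and a log2 difference beyond 1). It was passed by 455 genes between 24 h and undifferentiated cells, by 519 genes between 24 h and 48 h, and by 1 gene between the endoderm and mesoderm series at 24 h. Values below are differences of log2 fold changes, 24 h minus the other time.

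Against undifferentiated cells, the Mtf2 null effect at 24 h was higher for the transport and hypoxia genes Slc30a3 (3.76), Slc16a3 (3.60), Bnip3 (3.47), Ndrg1 (2.02) and Slc2a1 (1.46). It was also higher for Cdkn1c (3.13), Pou3f1 (2.39), Zic5 (2.13), Id1 (1.79) and Vim (1.41). It was lower for Adgrd1 (-4.37), Itpr2 (-4.21), Otx2 (-4.10) and Fst (-3.51). Leaving out any 1 of the 4 libraries at 24 h ended the calls for Vim, Ndrg1 and Fst, and that of Id1 was lost without WT replicate 1, WT replicate 2 or Mtf2 null replicate 1, and that of Zic5 without Mtf2 null replicate 2 (adjusted p of 0.00137 to 0.00926 over these). Vim, Ndrg1 and Zic5 were also lost with the compared libraries alone. Vim and Zic5 were called lower at 24 h and had stood further apart in undifferentiated cells.

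Against 48 h, the effect at 24 h was higher for the epithelial genes Mal2 (4.64), Esrp1 (2.77), Cldn7 (2.60) and Grhl2 (2.26), for Car4, a carbonic anhydrase gene (4.39), for the cadherin gene Cdh10 (4.05), and for Pou3f1 (3.34), Egr1 (2.96), Nes (2.40), Slc16a3 (2.26), Cdkn1c (2.06), Sox11 (1.80), Peg10 (1.77) and Dnmt3b (1.76). It was lower for Hnf4a (-5.98), Cdh6 (-5.54), Pga5 (-5.45), Xaf1 (-4.92), the pseudogene Rps3a3 (-4.42), Kit (-4.09), Tfap2c (-1.82) and Fbxo15 (-1.69). The call for Rps3a3 was lost with DESeq2 (adjusted p = 0.0110), with the compared libraries alone (0.00775) and without any 1 of the 4 libraries (0.00177 to 0.0257). Without WT replicate 2 those of Car4 (0.00227), Cdh6 (0.00242), Tfap2c (0.00142), Egr1 (0.00262) and Cdh10 (0.00276) were lost. Egr1 was also lost without Mtf2 null replicate 1 (0.00128), and Cdh10 without WT replicate 1 (0.0103) or Mtf2 null replicate 2 (0.0261). Fbxo15, Car4, Egr1 and Cdh10 were not called with the compared libraries alone (0.00106 to 0.0100). Between the 2 series, Gm10073 differed by -7.41.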

How the results depend on the processing

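Of the 102 genes and 40 differences named by rule, 0 were reversed under any alternative tried. A value counted as reversed if its sign changed while it was called in the main fit or in the alternative. Sign changes of values called in neither were not counted. Genes named outside the rule were not followed singly. The split of 688 higher and 579 lower turned to 522 and 770 with scaling by library totals, to 445 and 450 without WT replicate 2 and to 305 and 314 at a log2 fold change beyond 2. The count of 1267 genes called at 24 h was 1160 with DESeq2, 973 with the 4 libraries alone, 1678 without a filter on low counts and 895 to 956 with 1 library left out. It was 619 at a log2 fold change beyond 2 and 5050 at an adjusted p under 0.05 with no fold limit. Protein coding genes alone gave 619 higher and 387 lower. The 1178 genes also called elsewhere became 582 and 4629 at those thresholds. The 455 genes that differed from undifferentiated cells became 791 without the filter, 229 with the compared libraries alone, 62 and 3066 at the other thresholds, and 229 to 315 with 1 library left out. For the 519 genes that differed from 48 h these were 939, 197, 161 and 2588, and 293 to 377. The 1 gene that differed between media became 5 with DESeq2, 115 without the filter, 5 with the compared libraries alone and 7 at an adjusted p under 0.05. The cause was not tested, apart from the number of genes or libraries that an alternative itself sets. With the replicate block 1258 genes were called at 24 h, 1236 of them also without it, and the counts for the differences were 469, 565 and 1. It ended the call of 1 named difference, that of Vim (1.41, adjusted p = 0.00119).

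Of 102 named genes, 15 lost their call without at least 1 library, as did 11 of 40 named differences, with the genes given above. Scaling by library totals ended the calls of Id1, Dppa5a, Sfmbt2 and Bnip3, and DESeq2 those of Gm49450, Gm12669 and Sp5. With 2 libraries per genotype described as technical duplicates, differences near the limits were not resolved, and 3 counts in a library corresponded to 0.191 to 0.277 CPM, which limits the genes at low levels.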

Other observations

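Groups outside the lists were looked at after their values had been seen, and are given as values. Of 49 imprinted genes tested, 9 were higher and 4 lower in Mtf2 null cells at 24 h (26.5% called, beside 6.58% of all genes tested), with a median log2 fold change of 0.17. Those higher were H19, Phlda2, Plagl1, Nnat, Peg10, Sfmbt2, Igf2, Magel2 and Peg13. Plagl1, the gene of a zinc finger factor, was at 0.291 and 0.703 CPM in WT and at 26.7 and 32.9 CPM in Mtf2 null. Phlda2, which restrains placental growth, was at 12.7 and 11.3 CPM and at 51.3 and 46.6 CPM, and had a log2 fold change of 0.05 in undifferentiated cells. The noncoding genes Meg3, Rian and Mirg of the Dlk1-Dio3 cluster were lower, as was Inpp5f. Rian was at 168 CPM in both WT libraries and at 2.21 and 2.64 CPM in Mtf2 null at 24 h. Over all 8 libraries of each line in the endoderm series, it was at 119 to 817 CPM in WT, 125 to 671 CPM in libraries labelled Jarid2 null and 1.59 to 3.51 CPM in Mtf2 null. Meg3 was at 49.4 to 306, 53.7 to 391 and 0.167 to 0.771 CPM in the same lines, and Mirg at 8.34 to 117, 10.8 to 142 and 0 to 0.299 CPM. The Mtf2 null line was thus outside the range of both other lines for these 3 genes at every time.

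Of 67 histone genes, 13 were higher and 1 lower (20.9% called, beside 6.43% of protein coding genes), and the median was 0.66. A value above 0 was seen for 59 of the 67, beside 7496 of 14624 protein coding genes. Hist1h2bm was at 33.9 and 31.2 CPM in WT and at 169 and 145 CPM in Mtf2 null. The medians in undifferentiated cells and at 48 h were 0.33 and -0.04, and that in the mesoderm series at 24 h was 0.01. In libraries labelled Jarid2 null, most histone genes also had values above 0 against the same WT libraries at 24 h. Examples are 0.68 for Hist1h4j and -0.01 for Hist1h2bm, and 0 genes were called higher there. The direction was thus not particular to Mtf2 null cells. Of 22 gamma protocadherin genes, 0 were higher and 7 lower (31.8% called), with a median of -0.88 and 1 value above 0. Of 83 cytosolic ribosomal protein genes, 8 were higher and 1 lower (10.8% called), with a median of 0.41. Members of these families share sequence with each other or with pseudogenes, so that single values in them are uncertain, and with scaling by library totals all medians move with that of all genes (-0.172).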
